A study of Mus musculus with 4 samples.

Results

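The Zfp genes encode zinc finger proteins, and their members here are the start sites whose gene symbol begins with Zfp followed by a number. This choice by name took 561 sites in 182 genes, out of 42207 sites and 9838 genes in the table. The choice used no measured value. The sites were mapped in skeletal muscle (gastrocnemius, a fast muscle of the calf) of male mice. These were AMPKα2-/- C57BL/6 mice about 8 weeks old (KO, 2 animals) and their wild-type controls (WT, 2 animals), with 1 library per animal. Prkaa2 codes for AMPKα2, a catalytic subunit of the energy-sensing kinase AMPK, and in KO the genomic stretch for part of its catalytic domain was deleted in all cells of the body. The libraries were made by WTSS-seq, which depletes ribosomal RNA, copies RNA with template switching at its 5′ end and reads from that end, so that clustered reads form an alternative start site (ASS).

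A zinc finger is a short fold in which cysteines and histidines hold a zinc ion. Most Zfp proteins carry arrays of the C2H2 type, which read DNA sequence, and many of these also carry a KRAB domain. KRAB zinc finger proteins bind transposable elements and other targets and recruit Trim28 with the histone methyltransferase Setdb1, which leads to silent chromatin. Their genes lie in clusters that grew by local duplication. Zfp36, Zfp36l1 and Zfp36l2 are of another kind: their CCCH fingers bind AU-rich elements of messenger RNA and bring about its decay.

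The libraries held 1300069 to 2900279 reads, those of KO being the deeper ones. Prkaa2, the targeted gene, had normalised counts of 149 and 183 in KO against 153 and 186 in WT, which gives no check of the genotype labels, since it was not established that its sites lie in the deleted stretch. All 10 muscle fibre markers were measured, and their summed normalised count was 65824 and 76864 in KO against 60340 and 84040 in WT. The sums overlapped, while only 2 of the 10 markers were higher in KO. The 11 fibroblast markers were all measured and lower in KO, with sums of 3608 and 3658 against 5284 and 5307, and 1 of them was called. Of the macrophage markers 4 of 5 were measured, with sums of 222 and 216 in KO against 348 and 329 in WT and no reads for Cd68. Of the T cell markers 2 of 5 were measured, with sums of 33.0 and 45.4 against 165 and 89.7 and no reads for Cd3g, Cd4 and Cd8a. Endothelial markers, 5 of 5 measured, had sums higher in both KO libraries, at 282 and 267 against 219 and 218. Those of blood, 2 of 5 measured with no reads for Hba-a2, Hbb-bs and Hbb-bt, had sums of 28.1 and 24.5 against 21.0 and 16.2. The part of these cell types in the Zfp values was not tested. In such bulk tissue, fewer cells of a type and less RNA per cell cannot be told apart.

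Zfp genes were numerous and thinly read. The median Zfp gene had 45 reads over the 4 libraries, 93 of the 182 genes had fewer than 50 reads, and 37 had 200 or more. A site spanned a median of 10 bp and held a median of 18 reads, against 13 bp and 19 reads for sites of other genes. Of the members, 85 genes had 1 site and 97 genes, or 53.3%, had more than 1, against 61.9% of the other genes. Zfp106 had the most sites, with 33, followed by Zfp521 with 26 and Zfp638 with 21. Zfp106 binds RNA and is needed for the upkeep of motor neurons and muscle. Zfp521 and Zfp638 both have known roles in the formation of fat cells, which Zfp521 inhibits and Zfp638 promotes. The 33 sites of Zfp106 were mainly exonic, with 25 contained in an annotated transcript (class code c) and 5 inside an intron (class code i). Those of Zfp521 were mainly intronic, with 24 of class i and 2 of class c. Zfp638 was closer to Zfp521 in this respect, with 16 of class i and 4 of class c.

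Over all members, 305 of 561 sites (54.4%) were intronic and 233 (41.5%) were contained in a transcript. The other genes had 51.9% intronic and 38.6% contained sites. Intronic sites took 42.9% and 35.0% of Zfp reads in KO against 40.5% and 29.9% in WT. For other genes, without mitochondrial and 18S ribosomal RNA reads, these shares were 38.6% and 30.3% in KO against 35.2% and 27.7% in WT. The Zfp share was a little higher in each library, and KO and WT overlapped. The share depends on the few genes with most reads: without the 3 largest of each set it was 64.8% and 54.9% in KO against 62.7% and 49.7% in WT for Zfp genes, and 38.7% and 30.2% against 33.8% and 27.4% for other genes. Sites that overlap an exon and an intron (class e) numbered 2 of 561, or 0.357%, against 3.24% of other sites, and sites antisense to an exon (class x) were also 2, against 2.85%. The remaining Zfp sites were 13 just outside a gene (class p) and 6 with another exonic overlap (class o). Sites of a gene are not independent of each other, so these shares were not tested.

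The annotated starts of 145 Zfp genes were at hand in the RefSeq promoter table. Few Zfp reads lay near them. Within 500 bp of an annotated start lay 21 of the 441 Zfp sites of these genes (4.76%), a share close to the 4.63% of other genes. These sites held 1.04% and 1.85% of the Zfp reads in KO against 0.732% and 1.92% in WT, a mean of 1.39% ± 0.592 (SD, n = 4 libraries). For other genes the share of reads was 7.23% and 10.97% in KO against 9.38% and 11.97% in WT, a mean of 9.89% ± 2.07 (SD, n = 4 libraries). The share was lower for Zfp genes in every library. A few genes with very many reads weigh on such shares, and without the 3 genes with most reads in each set the means were 3.27% ± 1.59 and 11.6% ± 2.56 (SD, n = 4 libraries). The plot of reads by distance from the start shows both sets in each library.

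**Figure D1:**
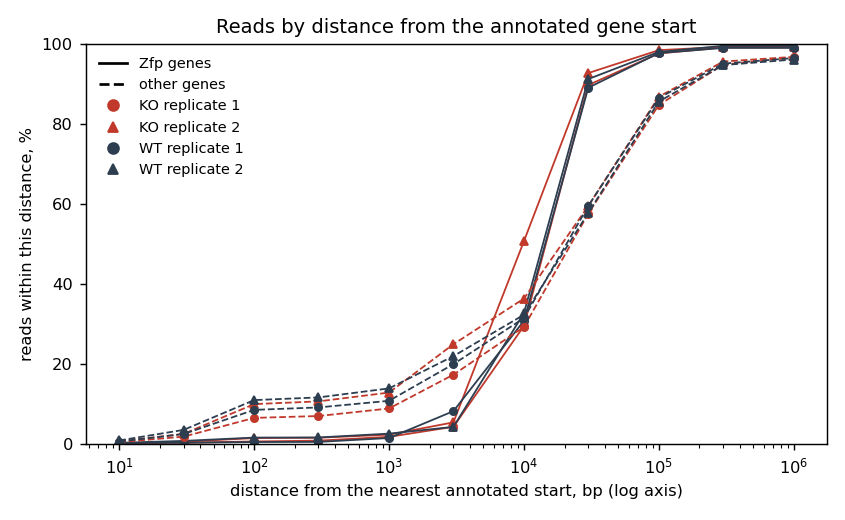
Cumulative share of reads (vertical axis, %) within a given distance of the nearest annotated start (horizontal axis, bp, log scale), for Zfp genes (solid lines) and other genes (dashed lines) in each library (red, KO; dark blue, WT). At 100 bp the mean over the 4 libraries was 1.08% for Zfp genes and 9.03% for other genes, and at 1000 bp 2.08% and 11.6%.

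Contained sites of Zfp genes lay far along their genes, at a median of 82.1% of the way from start to end, with 52.0% of them past 80% of the way. In other genes the median was 87.4% and the share past 80% of the way 58.6%. Intronic Zfp sites lay at a median of 40.1% along the gene, with 6.51% past 80% of it, against 43.2% and 14.0% in other genes. Among 221 intronic Zfp sites with a known gene strand, 4 (1.81%) lay on the opposite strand, at Zfp106 and Zfp663, against 3.50% for other genes. One of these, at chr2:120562345-120562348 in the first part of Zfp106, was among the larger Zfp106 sites, with 138 and 78 reads in KO against 92 and 33 reads in WT.

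The search for start sequences did not cover every chromosome. In 6 of the genes searched, a site of at least 20 reads had its richest position near the annotated start. Near means between 250 bases before and 49 bases after it. The sequence at these starts is shown because in it read ends and the annotated start lie close together. Each line runs 5′ to 3′ on the gene's strand from 120 bases before the start to 29 bases after it, from RefSeq on build GRCm38.p6, with the stretch covered by the site in capitals.
Zfp106: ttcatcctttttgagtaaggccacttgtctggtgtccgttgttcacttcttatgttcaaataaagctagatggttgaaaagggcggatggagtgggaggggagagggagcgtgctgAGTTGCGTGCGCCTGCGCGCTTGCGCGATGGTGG
Zfp691: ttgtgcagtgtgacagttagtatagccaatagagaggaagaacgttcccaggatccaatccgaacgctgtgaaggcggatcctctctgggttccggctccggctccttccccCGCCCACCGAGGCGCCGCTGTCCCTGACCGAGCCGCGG
Zfp52: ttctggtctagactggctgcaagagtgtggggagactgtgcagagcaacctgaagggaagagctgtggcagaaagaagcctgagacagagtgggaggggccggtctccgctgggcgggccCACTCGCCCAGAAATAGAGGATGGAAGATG
Zfp346: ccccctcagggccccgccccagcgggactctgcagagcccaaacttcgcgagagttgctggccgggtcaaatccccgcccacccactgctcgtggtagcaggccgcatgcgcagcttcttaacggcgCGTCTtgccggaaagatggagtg
Zfp54: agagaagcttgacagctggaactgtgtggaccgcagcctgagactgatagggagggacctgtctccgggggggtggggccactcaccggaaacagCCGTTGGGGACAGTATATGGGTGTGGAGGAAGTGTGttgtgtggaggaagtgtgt
Zfp763: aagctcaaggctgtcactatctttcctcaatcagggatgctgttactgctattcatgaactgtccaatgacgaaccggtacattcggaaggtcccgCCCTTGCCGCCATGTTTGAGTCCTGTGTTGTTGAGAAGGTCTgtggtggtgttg
Zfp106 is shown from chr2:120563830-120563979 on the minus strand, and its site had 35 and 98 reads in KO against 10 and 32 in WT. Its richest position lay 35 bases past the start, just beyond the printed stretch. Zfp691 (chr4:119174166-119174315, minus strand) had 14 and 37 reads in KO against 5 and 33 in WT, with the richest position 22 bases past the start. Zfp52 (chr17:21535419-21535568, plus strand) had 7 and 26 reads in KO against 4 and 13 in WT. By raw reads, KO replicate 2 was the highest library in these genes and WT replicate 1 the lowest. Zfp346, which binds double-stranded RNA (chr13:55105202-55105351, plus strand), had 9 and 13 reads in KO against 7 and 12 in WT, in a site of only 5 bases. Zfp54 (chr17:21423107-21423256, plus strand) had 8 and 3 reads in KO against 9 and 6 in WT. Zfp763 (chr17:33033352-33033501, minus strand) had 4 and 4 reads in KO against 7 and 5 in WT, around a position 2 bases before the start. These are raw reads of libraries that differ in depth. After normalisation the Zfp106 site stood at 23.0 and 84.6 in KO against 13.6 and 37.0 in WT, which overlapped. The normalised gene sum of Zfp691, which has 1 site, was 8.55 and 32.3 in KO against 7.01 and 41.1 in WT. There WT replicate 2 was the highest library.

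Promoters of Zfp members were rich in CpG. Over 180 windows of 300 bases around the starts of 145 member genes, the median GC content was 56.0% and the median number of CpG was 16, against 52.7% and 7 over all 32851 windows of the table. The letters CCGGAA, the core bound by ETS factors, were in 35.6% of Zfp windows and 14.9% of all windows. GGGCGG, the GC box bound by Sp factors, was in 48.3% against 35.7%. TATAAA, the TATA box, was in 6.67% against 13.6%. Both strands were searched, and matches of different motifs could overlap at their ends. A match is only a run of letters, and windows of duplicated genes are alike, so the shares are a description. The windows of the whole table came from 27025 genes, many without a listed site here, while every member had one. Whether the differences go with detection in this muscle was not tested.

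By position, Zfp genes with reads were spread over the autosomes and the X chromosome. Chromosome 7 held 40 of them out of 94 Zfp genes of RefSeq, and chromosome 17 held 21 of 47. Chromosome 13 held 13 of 39 and chromosome 4 held 6 of 28, while chromosome 9 held 14 of 20 and chromosome 18 held 8 of 11. Chromosome 9 had the most Zfp reads, 18720, and these came mainly from Zfp26. RefSeq lists 416 Zfp genes, and 181 of the 182 members matched an entry (Zfp607 did not). Of these, 179 were protein coding, and Zfp36l1-ps and Zfp133-ps were pseudogenes. Reads of duplicated Zfp genes, and of Zfp36l1 and its pseudogene, may be split between copies, so values of single members of a cluster are uncertain.

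A few genes held most Zfp reads. The 3 genes Zfp26, Zfp36l1 and Zfp787 took 47.6% and 53.1% of Zfp reads in KO against 49.5% and 51.5% in WT, and the first 12 genes took 74.0% over all libraries. Reads are counted per 5′ end and were not divided by length, so the order is one of reads and not of transcript levels. Zfp26 had 6320 and 2705 reads in KO against 3542 and 3600 in WT. Nearly all of them (99.1%) came from a site of 11 bases at chr9:20434769-20434779, contained in the transcript 25387 bases from the start. After normalisation Zfp26 stood at 3860 and 2364 in KO against 4967 and 4484 in WT, so that the groups did not overlap, with a log2 fold change of -0.60 (SE 0.42) that did not pass the DESeq2 test (adjusted p = 0.770).

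Zfp36l1, of the CCCH kind, had normalised counts of 1455 and 4348 in KO against 1707 and 1995 in WT, of which the site at chr12:80108975-80108994 gave 98.4% of the raw reads. KO replicate 2 was far above the other libraries, and the log2 fold change of 0.65 (SE 0.51, adjusted p = 0.852 by DESeq2) turned to -0.34 without it. Its relative Zfp36l2 had 55.0 and 38.4 in KO against 119 and 76.0 in WT, all from 1 site, with the groups apart and a log2 fold change of -1.06 (SE 0.64, adjusted p = 0.673 by DESeq2). Zfp36 itself had 6 and 5 reads in KO against none in WT, too few to be tested. Zfp787 drew 99.8% of its reads from the intronic site chr7:6140119-6140137, and had normalised counts of 1214 and 1389 in KO against 1442 and 806 in WT, which overlapped (log2 fold change 0.21 with an SE of 0.44, adjusted p = 0.987 by DESeq2).

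Among the next genes by reads, Zfp106 had normalised counts of 734 and 921 in KO against 1373 and 958 in WT, both WT libraries being higher (log2 fold change -0.49 with an SE of 0.42, adjusted p = 0.883 by DESeq2). Zfp644, a partner of the histone methyltransferases Ehmt1 and Ehmt2, had 699 and 530 against 745 and 732. Zfp462, known from heterochromatin and neural development, had 351 and 495 against 314 and 559. Neither gene passed the test. Zfp182, on the X chromosome, had 240.1 and 139 in KO against 391 and 389 in WT, with WT higher in both libraries and a log2 fold change of -1.04 (SE 0.48, adjusted p = 0.426 by DESeq2). Zfp280d had 269 and 359 in KO against 226 and 88.4 in WT, with KO higher in both libraries (log2 fold change 1.00 with an SE of 0.55, adjusted p = 0.591 by DESeq2).

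Some well-read members rested on a library of their own. Zfp592 had normalised counts of 157 and 239 in KO against 826 and 52.3 in WT, so that WT held both the highest and the lowest value. Its log2 fold change of -1.15 (SE 1.54, adjusted p = 0.951 by DESeq2) became 1.92 without WT replicate 1 (adjusted p = 0.227 by DESeq2) and -2.09, past the threshold, without WT replicate 2 (adjusted p = 0.0410). Zfp933 had 508 and 153 in KO against 237 and 72.2 in WT, and its log2 fold change of 1.10 became -0.01 without KO replicate 1 and 2.198 without WT replicate 1, not called in either case. Zfp827, named after its values were seen, had 233 reads in KO replicate 1, 2 reads in WT replicate 1 and none in the other libraries. Zfp148, Zfp521 and Zfp638 were steadier, at 215.0 and 215.0 against 236 and 240.4, 172 and 158 against 147 and 148, and 156 and 239 against 164 and 113.

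**Figure D2:**
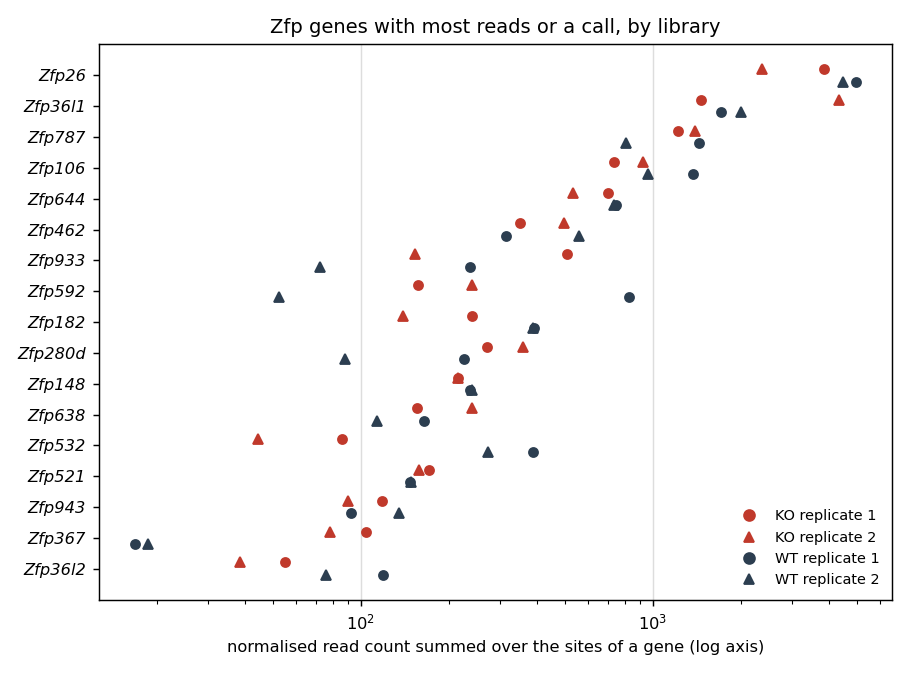
Normalised read count summed over the sites of a gene (horizontal axis, log scale) for the 17 Zfp genes named by reads, sites, calls or CCCH fingers that have reads in all libraries, with 1 point per library (red, KO; dark blue, WT; circle, replicate 1; triangle, replicate 2). Zfp532 and Zfp367 show the groups furthest apart, and Zfp592 has both its highest and its lowest point in WT.

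Few Zfp sites were called different between the genotypes, a share near that of all sites. DESeq2 gave an adjusted p to 143 of the 561 sites, those with a mean normalised count above 8.76. At an adjusted p under 0.1 it called 3 higher and 1 lower in KO, or 2.80%, against 3.21% of all 11112 tested sites (2.33% higher and 0.882% lower). By unadjusted p under 0.05 there were 9 Zfp sites, or 6.29%, against 9.63% of all tested sites. The KO and WT values did not overlap in 50 of the 143, against 40.4% of all tested sites. edgeR's quasi-likelihood test on 149 Zfp sites called 0 higher and 1 lower, against 0.712% of all sites called by edgeR (0.427% higher and 0.285% lower). By unadjusted p under 0.05 edgeR had 12 of the 149, against 10.3% of all sites. The 4 sites called by DESeq2 were in Zfp532, Zfp367, Zfp943 and Zfp148.

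The share was also near that of all genes in the gene sums. Of 182 genes, 67 were tested by DESeq2 and 115 were too thinly read to be given an adjusted p. Zfp367 was called higher and Zfp532 lower in KO, 2.99% of the Zfp genes tested, against 2.67% of all 4688 tested genes (1.71% higher and 0.96% lower). By unadjusted p under 0.05 there were 5 Zfp genes (7.46%), against 9.77% of all tested genes, and the groups did not overlap in 22 of the 67, against 41.4% of all tested genes. edgeR called 0 higher and 1 lower of 99 Zfp genes, against 0.883% of all genes called by edgeR (0.54% higher and 0.343% lower), and 9 of the 99 had an unadjusted p under 0.05, against 10.5% of all genes. The median log2 fold change of the Zfp genes tested was -0.02 (median over all genes tested 0.01), and 33 of 67 were higher in KO. The middle of their distribution lay between -0.39 and 0.57, next to a median SE of 0.75 for a gene.

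**Figure D3:**
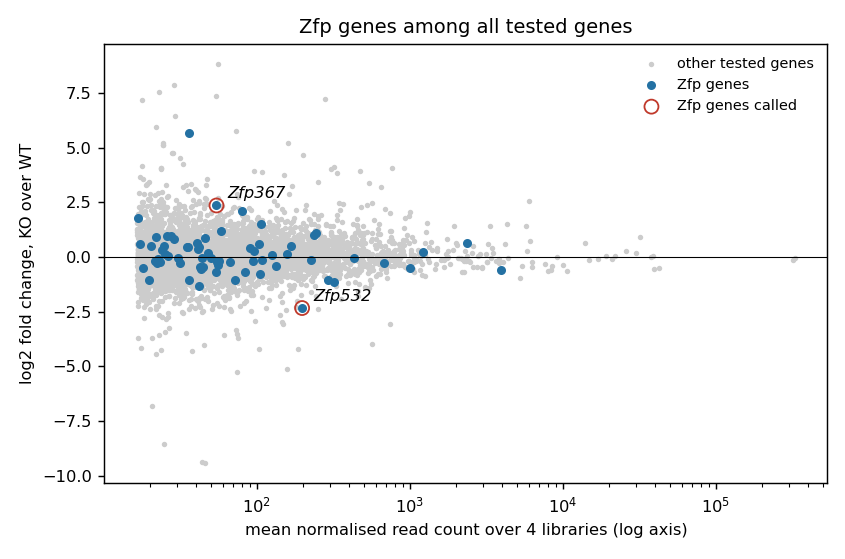
DESeq2 log2 fold change of KO over WT (vertical axis) against the mean normalised read count over the 4 libraries (horizontal axis, log scale) for every tested gene, with 67 Zfp genes in blue, other genes in grey and the called Zfp genes ringed. Zfp genes lie on both sides of 0, from -2.33 for Zfp532 to 5.67 for Zfp827, and only Zfp367 and Zfp532 are ringed.

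The lower call was in Zfp532, and it sat on 1 intronic site. Its protein is a C2H2 relative of Zfp592, and the human counterparts of both are found with ZMYND8 in a chromatin complex. The site at chr18:65661954-65661972, 19 bases wide, had 23 and 8 reads in KO against 263 and 198 in WT. After normalisation it stood at 15.1 and 6.90 in KO against 357 and 229 in WT (11.0 ± 5.79 against 293 ± 90.6, SD, n = 2). Both WT libraries were far above both KO libraries. The log2 fold change was -4.72 (SE 0.73), with an adjusted p of 1.16e-07 by DESeq2 and 0.0389 by edgeR.

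The rest of Zfp532 did not follow this site. Its 5 other sites together had 118 and 43 reads in KO against 13 and 21 in WT, or normalised counts of 72.1 and 37.6 against 18.2 and 26.2 (54.8 ± 24.4 against 22.2 ± 5.60, SD, n = 2), with both KO libraries above both WT libraries. The log2 ratio of these means was 1.29 with a pseudocount of 0.5, a value chosen after the site was seen and not tested. The gene sum, with 141 and 51 reads in KO against 276 and 219 in WT, had a log2 fold change of -2.33 (SE 0.54), called by DESeq2 (adjusted p = 0.00198) and by edgeR (adjusted p = 0.0887). Summed over exonic sites alone it was 1.20 and not called (DESeq2 adjusted p = 1.00). Without KO replicate 2 or WT replicate 1 the gene sum lost its call (DESeq2 adjusted p = 0.265 and 0.189).

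Zfp367, a C2H2 protein, was higher in KO at the end of the gene. The site at chr13:64133877-64133977, contained in the transcript and 95.5% of the way along it, had 161 and 82 reads in KO against 9 and 13 in WT. The normalised counts were 106 and 70.8 against 12.2 and 15.0 (88.2 ± 24.7 against 13.6 ± 1.98, SD, n = 2), and the groups did not overlap. The log2 fold change was 2.69 (SE 0.86, adjusted p = 0.0724 by DESeq2), and the gene sum gave 2.36 (SE 0.72, adjusted p = 0.0526 by DESeq2). edgeR called neither (adjusted p = 0.185 and 0.132), and DESeq2 lost both calls with any of the 4 libraries left out (adjusted p from 0.228 to 1.00). Summed over exonic sites alone, Zfp367 stayed called, with a log2 fold change of 2.63 (DESeq2 adjusted p = 0.0282). The other Zfp367 site had 9 and 8 reads in KO against 3 and 2 in WT.

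Zfp943 and Zfp148 each had a small intronic site with reads in both KO libraries and none in WT. In Zfp943, chr17:21968555-21968557 had 43 and 16 reads in KO, which against a floor of 3 reads per WT library was at least 5.58-fold higher (DESeq2 adjusted p = 0.0782, edgeR 0.130). Its 7 other sites had 151 and 87 reads in KO against 66 and 108 in WT, or normalised counts of 92.2 and 76.0 against 92.6 and 134.5, the higher KO value being just under the lower WT value. Zfp148, which binds GC-rich promoters, had 14 and 36 reads in KO at chr16:33385051-33385053, at least 5.34-fold higher (DESeq2 adjusted p = 0.0931, too thinly read for the edgeR test). The 19 other sites of Zfp148 had 338 and 210 reads in KO against 168 and 193 in WT, or normalised counts of 206 and 184 against 236 and 240.4, lower in both KO libraries. Both sites had passed the read minimum of the table and the filter on mean counts through KO alone, and without independent filtering both calls were lost (DESeq2 adjusted p = 0.296 and 0.348). Sites with reads in both KO libraries and none in WT numbered 45 among the 561 (8.02%), against 6.55% of all sites, and the reverse held for 6 (1.07%), against 1.26% of all sites. The calls at both sites were lost when KO replicate 2 or WT replicate 2 was left out (DESeq2 adjusted p from 0.375 to 1.00), and without KO replicate 1 or WT replicate 1 neither site was given an adjusted p.

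**Figure D4:**
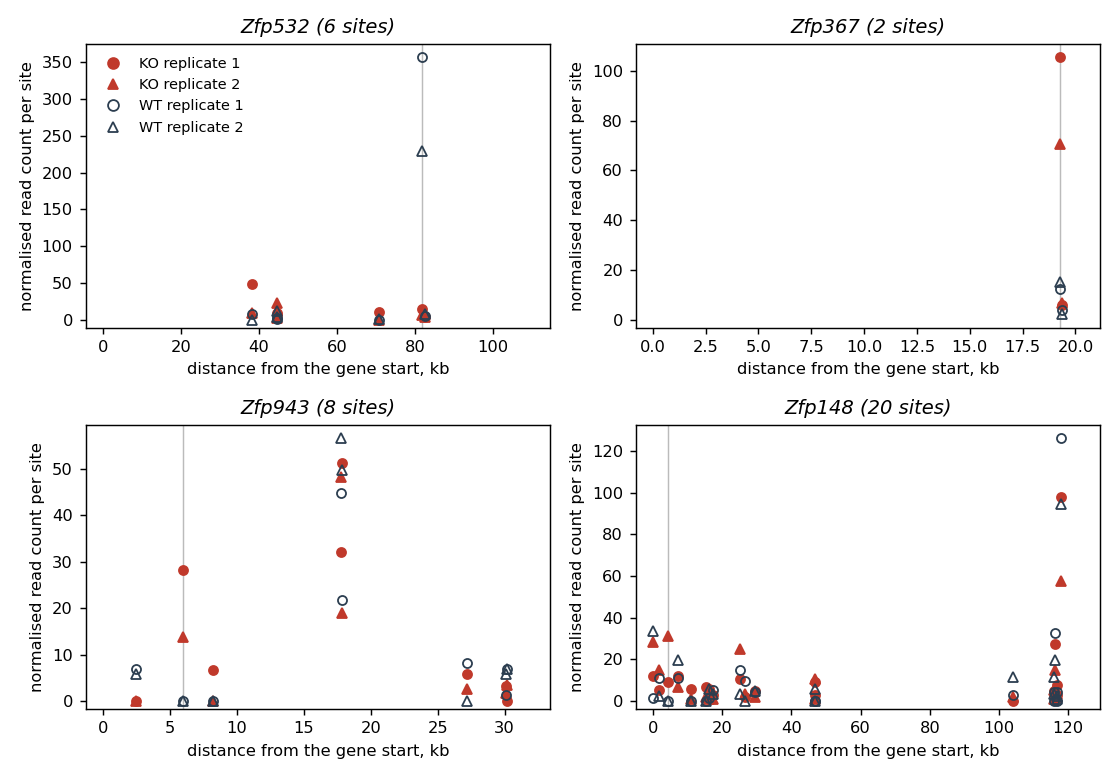
Normalised read count of each site (vertical axis) against its distance from the gene start in kb (horizontal axis) in the 4 genes with a called site, with 1 point per library (filled red, KO; open, WT; circle, replicate 1; triangle, replicate 2) and a grey line at the called site. Zfp532 has 357 and 229 in WT at the called site against 15.1 and 6.90 in KO, while in Zfp943 and Zfp148 the called site is not the site with most reads.

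Members named after their values were seen include Zfp280b, with 68 and 251 reads in KO against 22 and 23 in WT, where KO replicate 2 set a log2 fold change of 2.13 (SE 0.78, adjusted p = 0.172 by DESeq2). In Zfp715, an intronic site had 109 and 109 reads in KO against 3 and 68 in WT, while a site near the end of the gene had 0 and 10 in KO against 13 and 74 in WT. Zfp385a had no read in KO against 10 and 8 in WT. None of these was called by DESeq2 or edgeR in the main settings. Zfp280b and sites of Zfp715 were called in some of the alternative settings given below.

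Whether KO and WT used the sites of a gene in other proportions was tested with edgeR (diffSpliceDGE), which asks whether a site moves apart from the rest of its gene. Of 32 Zfp genes with at least 2 sites read deeply enough, 1 was called, against 1.77% of all 2145 genes. This was Zfp943 (Simes adjusted p = 0.0940). The called intronic site held 25.3% and 17.0% of the tested Zfp943 reads in KO against none in WT (21.2% ± 5.85, SD, n = 2). It is the site named above that passed the read filters through KO alone. The usage call therefore gives no separate support for a change at this site. The sites at 21980318 and 21980399 held the rest in all libraries. Zfp532 lay just outside the threshold by this test (adjusted p = 0.101), and the gene-level F test called it (adjusted p = 0.0372) along with Zfp943 (0.0649), where 3.31% of all genes were called. In Zfp532 the intronic site held 71.9% and 22.9% of tested reads in KO against 99.2% and 95.2% in WT, the other tested site being the exonic one at chr18:65624960. Zfp106, with 12 sites in the test, had an adjusted p of 1.00.

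Zfp genes were listed only where their sites had enough reads over the 4 libraries, of which the KO ones were deeper. Such a listing admits genes read in KO more readily, and thinning does not undo it. Its part in the counts below was not tested. At 1 read or more, 172 and 165 genes were detected in KO against 152 and 157 in WT (168.5 ± 4.95 against 154.5 ± 3.54, SD, n = 2). With each library thinned to 1300069 reads the counts were 165.6 and 158.0 in KO against 152 and 155 in WT, a difference of 8.30 in place of 14.0 genes. As a share of the listed Zfp genes the thinned counts were 91.0% and 86.8% in KO against 83.5% and 85.2% in WT, and over all listed genes 92.8% and 89.9% against 88.3% and 86.4%. At 5 reads or more after thinning they were 119 and 107 in KO against 109 and 105.6 in WT, and the groups overlapped. Reads in all 4 libraries were found for 132 Zfp genes (72.5%), against 76.4% of all genes. Reads in both KO libraries and none in WT were found for 8 (4.40%, against 2.97%), and the reverse for 1 (0.549%, against 0.61%). An exact permutation test of 2 against 2 libraries cannot go below p = 0.33, so none was made.

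The share of all Zfp sites in the reads outside rRNA and the mitochondrial genome was 12237 and 12030 parts per 1000000 in KO against 14278 and 12433 in WT (12134 ± 146 against 13356 ± 1304, SD, n = 2). Both KO libraries were below both WT libraries. The log2 ratio of the group means was -0.14, less than the spread of the WT pair. It was 0.04 without Zfp26, -0.13 without Zfp26, Zfp36l1 and Zfp787, and -0.04 without WT replicate 1, so no direction is read from it.

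Partners of KRAB zinc finger proteins were taken from a list of 34 genes of the Trim28 complex, heterochromatin, DNA methylation and the SUMO pathway, of which 25 were measured and 16 tested. DESeq2 called 0 of these 16, against 2.67% of all tested genes, with 0 at an unadjusted p under 0.05, against 9.77%. edgeR called 0 of 20, against 0.883%. For so short a list 0 calls is near the share of all genes. The median log2 fold change was 0.07. Trim28, the corepressor itself, had only 5 and 2 reads in KO against 1 and 3 in WT and could not be tested. Setdb1 had 31 and 43 reads in KO against 13 and 22 in WT. Atrx, a chromatin remodeller of heterochromatin, was among the best read, with normalised counts of 685 and 452 in KO against 450.1 and 279 in WT and a log2 fold change of 0.64 (SE 0.47, adjusted p = 0.800 by DESeq2). Rbbp7, a histone-binding subunit of several chromatin complexes, had 514 and 884 against 592 and 958, and the groups overlapped.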

How the data were processed

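Total RNA of muscle was sequenced by WTSS-seq in 2 KO and 2 WT libraries, grouped by their labels. The authors deposited 1 table of raw read counts per clustered start site, with a gene symbol and Cuffcompare class code. Mapping and clustering were described only for sister libraries of 3′ ends. The build, per the labels, was GRCm38.p5, and coordinates count from 1. Every listed site had at least 10 reads over the 4 libraries, which admits sites of the deeper KO libraries more readily. Totals per library were 1300069 to 2900279 reads. No molecular identifiers were described, so the floor of 3 reads covers counting error only.

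Counts were compared by site and by gene sum with the Wald test of DESeq2 1.42.0 (R 4.3.3) over the whole table, with its size factors and independent filtering, at a p of under 0.1 after Benjamini-Hochberg adjustment, after the study's methods. Gene tests kept mean normalised counts above 16.5. edgeR 4.0.16 (TMM factors, quasi-likelihood test) was the alternative and gave the usage test by diffSpliceDGE. Normalised counts are counts divided by DESeq2 size factors, by site or by gene sum as the row tested. A gene at or under 3 reads per library was bounded at that floor. Shares, distances and thinning (5 draws) were computed in Python 3.11.15. The scripts were tested on simulated data. Starts and promoters came from RefSeq tables of GRCm38.p6, without a genome. Genes were named by a rule: those called, the 12 with most reads, the 3 with most sites, the CCCH genes and Prkaa2. Members, lists and tests were chosen with earlier results of these data known. Each group has 2 animals, so p-values rest on the spread between these libraries.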

Additional observations from a re-analysis of the deposited data

How the results depend on the processing

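The Zfp532 site stayed called in the alternatives run (other normalisation, no independent filtering, the stricter threshold, edgeR, each library left out, the replicate block in DESeq2), and lost the call only with edgeR and the replicate block together (adjusted p = 0.108). The 3 sites called higher became 0 with edgeR, without independent filtering, at an adjusted p under 0.05, with the replicate block and with edgeR and the replicate block, and 0 to 2 with a library left out, where the sites called were others, in Zfp827, Zfp280d, Zfp516 and Zfp715. The 1 site called lower became 2 with the replicate block (Zfp532 and Zfp715), 0 with edgeR and the replicate block, and 1 with each library left out. The 1 gene called higher became 0 with edgeR, without independent filtering, at an adjusted p under 0.05 and with the replicate block, and 0 to 1 with a library left out, where the genes called were Zfp280b and Zfp827 and not Zfp367. The 1 gene called lower became 0 on exonic sites alone and 0 to 2 with a library left out (Zfp592 beside Zfp532 without WT replicate 2), and its sum over Zfp532 sites turned to 1.20 on exonic sites and to 1.29 without the called intronic site, which holds most of its WT reads. The 1 gene called for usage became 2 by the F test, 0 with the replicate block (adjusted p = 0.356 for Zfp943), 0 on primary chromosomes (0.103) and 0 to 1 with a library left out, which was Zfp532: Zfp943 lost its call each time (0.215 to 0.857). The gene sum of Zfp367 kept its call with other normalisation and on exonic sites alone (DESeq2 adjusted p = 0.0631 and 0.0282). It also kept the call with edgeR and the replicate block together (edgeR adjusted p = 0.0987). The difference in detected genes, 14.0, was 30.5 at 5 reads and 5.70 at 5 reads after thinning. The Zfp share differed by 0.040 in log2 without Zfp26, the intronic share was 58.6% at 40 reads or more, the share near the start was 2.08% within 1000 bp, and the 3 calls among other zinc finger genes became 1 with edgeR. Where no value shows it, the cause was not tested. Same-numbered libraries hardly deviated together (r = 0.0732 over 10728 sites), and the labels do not say that numbers pair animals, so the block is given here only. The combined edgeR block, the set without the called Zfp532 site and the thinned minimum of 5 reads were chosen after seeing the data. Depth left 418 of 561 sites and 115 of 182 genes without an adjusted p.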

Other observations

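Zinc finger genes outside the Zfp symbols (Zbtb, Zscan, Zkscan, Klf, Sp, Gli, Egr, Ikzf, Prdm, Zeb, Sall and Zfhx families) numbered 71 with reads, of which 39 were tested. DESeq2 called 2 higher and 1 lower in KO, against 2.67% of all genes tested. Higher in KO were 24 of the 39 (61.5%), against 50.5% of all genes tested. The median log2 fold change was 0.12, against 0.01 over all genes tested. These counts and the median include Zbtb8os, described below. Sp2, a GC-box binding factor, had 2090 and 2064 reads in KO and 387 and 246 in WT, or normalised counts of 1277 and 1804 against 543 and 306, with both KO libraries higher and a log2 fold change of 1.86 (SE 0.46, adjusted p = 0.00577 by DESeq2 and 0.150 by edgeR). Klf12, a Krüppel-like repressor, had 197 and 154 reads in KO and 21 and 30 in WT, again with KO higher in both (log2 fold change 1.93 with an SE of 0.62, adjusted p = 0.0805 by DESeq2 and 0.179 by edgeR). Zbtb8os was the 1 gene called lower in KO, with no reads in KO and 18 and 121 in WT. It was caught by the letters of its symbol and is not itself a zinc finger gene, and it was also the 1 gene of the list that edgeR called (adjusted p = 0.0191).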
